A study of Homo sapiens with 6 samples.

Results

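The genes described here are the interleukins and interleukin receptors, taken as every gene of the deposited table whose symbol begins with IL and a number, without antisense transcripts and pseudogenes. By this rule 87 of 61806 genes were members, and 13 antisense genes and pseudogenes were set aside. The rule goes by symbol, so that relatives with other names, such as CXCL8, LIF or OSM, were not members. Of the members, 4 (IL16, IL32, IL34 and IL4I1) carry the name but were set apart here from the families of the others. A further 2, IL10RB-DT and IL6ST-DT, were grouped as noncoding or other. RNA was sequenced from MDA-MB-231, an established triple-negative breast cancer cell line, in 3 stable lines with 2 libraries each. The question asked of each comparison was which genes changed when HMGA2, a chromatin protein that binds AT-rich DNA, was knocked down.

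The shNC line carried a control short hairpin RNA, and the shHMGA2-1 and shHMGA2-2 lines each carried a different short hairpin against HMGA2. All had the MDA-MB-231 background. According to the methods of the study, lentivirus and puromycin were used, and each stable line was grown from a single clone, although the methods do not say this of shNC by name. An effect of the knockdown and a difference between clones therefore cannot be told apart within any one line. The library names of the controls read WT where the titles read shNC, and SH2 appears in those of the shHMGA2-1 titles. Titles were used here. Nothing in the labels says that the 2 libraries of a line came from separate cultures, so that p-values measure only the spread between these libraries, which may be technical. In bulk RNA, fewer cells that express a gene and less RNA per cell cannot be told apart.

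HMGA2 was counted 2126 and 2161 times in shNC, against 858 and 989 in shHMGA2-1 and 435 and 482 in shHMGA2-2. Every library titled shHMGA2 thus lay below both control libraries. These counts cannot show which hairpin a line carried, or whether the controls were shNC or WT. The log2 fold changes of HMGA2 against shNC were -1.29 (SE 0.09, edgeR adjusted p = 2.17e-11) and -2.31 (SE 0.09, edgeR adjusted p = 2.11e-16). The libraries held 16461178 to 17167293 counts, and 3 counts, the upper limit set for a count of 0, were worth 0.172 to 0.185 CPM (counts scaled to a common library total, with TMM-normalized library sizes). Intervals and floors cover counting error only, as the reads carry no molecular identifiers. Between the libraries of a line the chi-square per degree of freedom came to 2.03 in shNC, 6.21 in shHMGA2-1 and 2.91 in shHMGA2-2. VIM and CD44, which mark mesenchymal lines such as this one, were high in all libraries, and PGR had at most 2 counts. ESR1, PGR and ERBB2 together were at 70.1 to 72.8 CPM in shNC, 85.1 to 110 in shHMGA2-1 and 93.3 to 100 in shHMGA2-2. The epithelial markers EPCAM, CDH1, KRT8 and KRT18 summed to 202 to 204, 184 to 204 and 293 to 310 CPM. Of 15 leukocyte markers, 10 had at most 3 counts in every library and 5 of these were at 0 throughout. Their summed level was 2.65 to 2.77 CPM in shNC, 4.24 to 4.38 in shHMGA2-1 and 4.76 to 5.26 in shHMGA2-2, with CD8A at 11 and 23, 61 and 63, and 59 and 72 counts in the 3 lines, while PTPRC, which defines leukocytes, had at most 2. Of 9 fibroblast and endothelial markers, 4 had at most 3 counts in every library, DCN and LUM were at 0 throughout, and the summed level was 5.66 to 7.88, 11.7 to 14.6 and 8.49 to 8.81 CPM. Their part in the results was not tested.

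Interleukins are secreted signals, first known from leukocytes and also made by epithelial and tumor cells. Each acts through a receptor of 2 or more chains, and families are held together by a shared chain. IL6ST (gp130) serves IL-6, IL-11 and their relatives, IL1RAP serves IL-1 and IL-33, IL10RB serves IL-10, IL-22 and IL-26, and IL17RA serves most of the IL-17 family. Receptors of the IL-1 and IL-17 families signal to NF-kappaB and AP-1, and the others signal mainly through JAK kinases and STAT factors. IL-6 and IL-11 are known in breast cancer cells as inflammatory, metastasis-related cytokines, and their genes are textbook targets of NF-kappaB and AP-1 respectively.

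Of the 87 members, 25 were at 0 counts in all 6 libraries, 19 reached at most 3, and 43 exceeded 3 in at least 1 library. Among the 36 that passed the filter on low counts and were tested, 21 changed at least 2-fold with an adjusted p under 0.05 in at least 1 comparison between lines. That is 58.3% of the tested members, against 26.2% of all 16110 tested genes. IL18R1, IL22RA1, IL12RB2 and IL17D passed the filter only through the shHMGA2-2 libraries, where they are high, so they entered the count on that ground. Those that were lower in both knockdown lines numbered 5: IL11, IL6 and IL15, which are ligands, and IL7R and IL31RA, which are receptors, or 13.9% against 2.12% of all tested genes. Only IL3RA was higher in both, and IL24 and IL1RAPL1 were lower in shHMGA2-1 and higher in shHMGA2-2, where the shares of all tested genes were 3.36% and 0.273%. The remaining 13 passed both thresholds in shHMGA2-2 and not in shHMGA2-1, and 9 of these also differed between the knockdown lines when they were compared directly. Over all tested genes these shares were 15.3% and 9.22%.

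The promoters of the members that passed both thresholds in both lines are shown because these genes carry the shared and the opposite changes. Each sequence holds the 250 bases before the start of a RefSeq transcript in GRCh38.p14, written 5′ to 3′ on the strand of the gene. Capitals mark matches, on either strand, to the AP-1 motif TGANTCA, the STAT motif TTCNNNGAA, the TATA box TATAAA or the kappaB motif. IL11 lies at chr19:55370464-55370713 on the minus strand, IL6 at chr7:22726950-22727199, IL7R at chr5:35856641-35856890, IL24 at chr1:206897193-206897442, IL1RAPL1 at chrX:28587196-28587445 and IL3RA at chrX:1336535-1336784, all on the plus strand. IL15 and IL31RA are named only.
IL11: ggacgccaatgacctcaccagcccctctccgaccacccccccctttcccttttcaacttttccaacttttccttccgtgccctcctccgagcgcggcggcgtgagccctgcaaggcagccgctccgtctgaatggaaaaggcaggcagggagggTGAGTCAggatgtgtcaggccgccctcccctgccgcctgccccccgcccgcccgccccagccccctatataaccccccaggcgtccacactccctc
IL6: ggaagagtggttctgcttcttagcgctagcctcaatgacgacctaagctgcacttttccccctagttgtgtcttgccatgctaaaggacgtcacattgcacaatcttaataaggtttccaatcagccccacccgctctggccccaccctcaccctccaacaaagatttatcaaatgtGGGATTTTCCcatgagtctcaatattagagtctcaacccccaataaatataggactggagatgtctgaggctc
IL7R: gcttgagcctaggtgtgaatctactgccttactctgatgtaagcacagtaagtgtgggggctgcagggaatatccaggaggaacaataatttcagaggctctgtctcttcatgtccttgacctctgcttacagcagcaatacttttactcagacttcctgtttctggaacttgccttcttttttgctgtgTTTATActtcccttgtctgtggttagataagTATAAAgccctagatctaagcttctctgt
IL24: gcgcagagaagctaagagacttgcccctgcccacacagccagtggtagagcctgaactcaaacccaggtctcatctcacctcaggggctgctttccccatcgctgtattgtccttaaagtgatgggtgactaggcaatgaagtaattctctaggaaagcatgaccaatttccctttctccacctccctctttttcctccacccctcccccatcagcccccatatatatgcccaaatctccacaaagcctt
IL1RAPL1: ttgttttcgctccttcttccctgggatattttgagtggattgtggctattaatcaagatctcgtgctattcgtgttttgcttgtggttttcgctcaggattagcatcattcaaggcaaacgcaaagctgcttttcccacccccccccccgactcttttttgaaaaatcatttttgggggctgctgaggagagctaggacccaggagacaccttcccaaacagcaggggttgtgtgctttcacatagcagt
IL3RA: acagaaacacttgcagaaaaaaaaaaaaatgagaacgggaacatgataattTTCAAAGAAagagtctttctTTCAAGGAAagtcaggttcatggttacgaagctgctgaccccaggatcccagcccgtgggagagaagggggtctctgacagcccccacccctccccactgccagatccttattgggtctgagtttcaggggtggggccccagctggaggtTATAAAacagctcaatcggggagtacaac

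The IL11 promoter held an AP-1 match from base -96 to -90, counted from the transcript start, and IL6 a kappaB match from -73 to -64. IL7R and IL3RA each had a TATA box match from -29 to -24, IL7R a second on the other strand from -60 to -55, and IL3RA 2 STAT matches. The IL24 and IL1RAPL1 windows held none of the 4 motifs. Among all 35093 promoters of this length the AP-1 motif occurred in 6.57%, the kappaB motif in 9.95%, the STAT motif in 6.57% and the TATA box in 10.7%. The share of A and T, of interest because HMGA2 binds AT-rich DNA, was 32.8% for IL11, 52.4% for IL6 and IL1RAPL1, 56.4% for IL7R, 48.4% for IL24 and 50.4% for IL3RA, beside a median of 42.0% over all promoters. For 31 of the 36 tested members the promoter table held 50 promoters in all, of which 7 had an AP-1 match, 12 a kappaB match, 6 a STAT match and 5 a TATA box match. These are counts of promoters and not of genes, as some genes had several, and overlapping IL15RA windows held the same AP-1 site. No test was made of these matches.

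In the control line, levels are compared between genes as FPKM, which divides by exonic length. IL6ST, the shared gp130 chain, was highest at 31.3 FPKM, followed by IL18 at 20.9, IL13RA1 at 15.4 and IL11 at 11.5. IL4R, the chain that IL-4 and IL-13 share, had 7.98 FPKM, IL27RA 5.09, IL7R 4.22 and IL31RA 3.96. The ligand genes IL6 at 1.44 and IL12A at 1.60 FPKM were far lower, and IL1B was at 0.42. Of the 87 members, 12 reached 1 FPKM in every library, as did 10351 of the 61806 genes of the whole table. All members together took 0.0625% to 0.0809% of the counts of a library, and IL6ST alone made up 43.6% to 59.3% of that share.

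**Figure D1:**
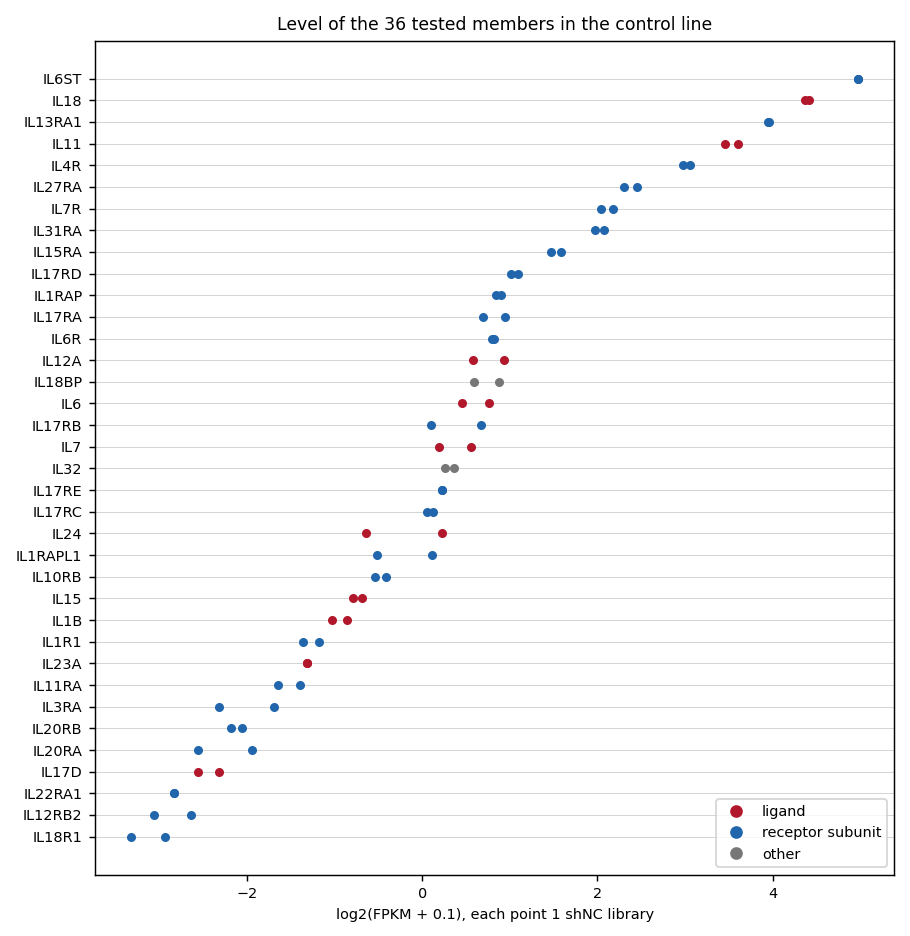
Level of the 36 tested members in the shNC line, as log2(FPKM + 0.1), each point 1 library, ordered by mean, with ligands in red, receptor subunits in blue and other members in grey. IL6ST stands highest at 31.3 FPKM and IL18, IL13RA1 and IL11 follow, while most ligands lie below 2 FPKM.

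Counted over the 36 tested members, 7 were at least 2-fold lower and 1 was higher in shHMGA2-1 than in shNC, beside 3.59% of all 16110 tested genes that were lower and 4.89% that were higher. For shHMGA2-2 against shNC, 11 were lower and 10 higher, where the background was 9.65% lower and 11.7% higher. Those 10 include IL18R1, IL22RA1, IL12RB2 and IL17D, which passed the filter on low counts only through this line. Between the lines, 5 were lower and 8 higher in shHMGA2-2 than in shHMGA2-1, with a background of 7.27% and 7.83%. The shares of members were 19.4% and 2.78%, 30.6% and 27.8%, and 13.9% and 22.2% in that order. In either direction the background was 8.49%, 21.3% and 15.1%. Both knockdown lines were compared with the same shNC libraries, so that their counts are not independent. The median log2 fold change of the tested members was -0.04 in shHMGA2-1 and 0.09 in shHMGA2-2, against 0.01 and 0.03 over all tested genes. Changes in both directions thus stood around a median close to that of all genes. With a threshold on the adjusted p alone, 14 members were lower and 4 higher in shHMGA2-1, where 17.6% and 15.8% of all genes were, and 15 were lower and 12 higher in shHMGA2-2, where 29.2% and 29.5% were.

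**Figure D2:**
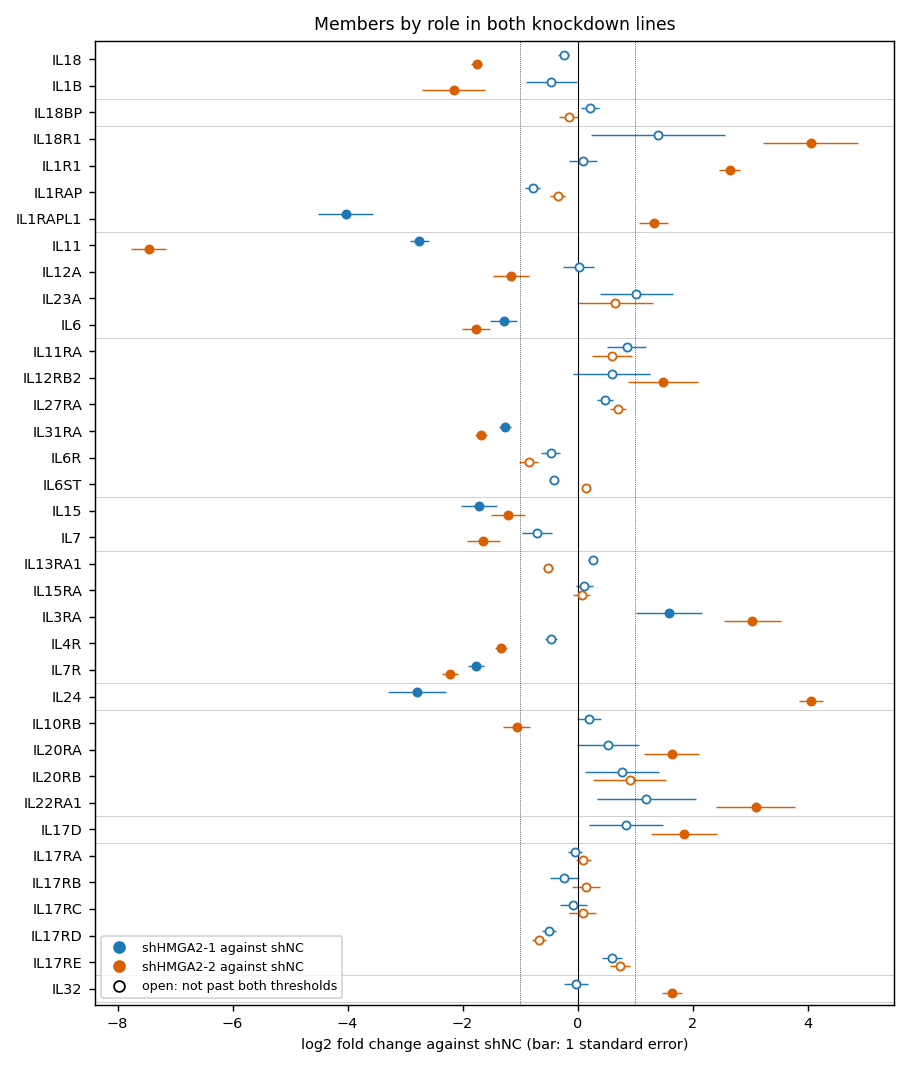
Log2 fold change against shNC of the 36 tested members, grouped by role from IL-1 ligands at the top to IL32 at the bottom, with bars of 1 standard error, in shHMGA2-1 (blue) and shHMGA2-2 (orange). Filled points passed both thresholds and dotted lines mark 2-fold, and IL11 reaches -7.46 and IL24 4.05 in shHMGA2-2.

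The ligands of the IL-6 and IL-12 family fell where they passed the test. Of 7 members 4 were tested, and 2 were lower in shHMGA2-1 and 3 in shHMGA2-2, with none higher, where 3.59% and 9.65% of all tested genes were lower. IL11, a cytokine that signals through IL11RA and gp130, lies on chromosome 19 from 55364382 to 55370463 on the minus strand (ENSG00000095752). IL11 was counted 547 and 496 times in shNC, against 86 and 77 in shHMGA2-1 and 0 and 6 in shHMGA2-2. The 3 lines did not overlap and stood in the same order as for HMGA2, at 32.1 ± 2.21, 4.75 ± 0.297 and 0.172 ± 0.243 CPM (SD, n = 2). The log2 fold change was -2.75 (SE 0.17, edgeR adjusted p = 5.02e-12) in shHMGA2-1, that is 6.76-fold lower. In shHMGA2-2 IL11 was lower by a ratio of 184 (95% exact counting interval 84.2 to 502, edgeR adjusted p = 1.87e-16), and it was lower than in shHMGA2-1 by a ratio of 27.2 (12.2 to 75.2, edgeR adjusted p = 1.08e-09). Since 1 library was at 0, the fitted size in shHMGA2-2 moved between -12.07 and -6.51 when single libraries were left out, the first when shHMGA2-2 replicate 2 was left out and the second when shHMGA2-2 replicate 1 was. The difference between the knockdown lines was -9.31 and -3.76 in the same cases. In FPKM, IL11 went from 11.5 in shNC to 0.07 in shHMGA2-2.

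IL6, the founding cytokine of the gp130 family, lies on chromosome 7 from 22725884 to 22732002 on the plus strand (ENSG00000136244). IL6 was counted 117 and 93 times in shNC, against 41 and 50 in shHMGA2-1 and 28 and 37 in shHMGA2-2. Both knockdown lines lay below both control libraries, at 2.65 ± 0.412 and 1.89 ± 0.33 CPM against 6.46 ± 1.04 (SD, n = 2). The log2 fold changes were -1.28 (SE 0.24, edgeR adjusted p = 0.000137) and -1.77 (SE 0.25, edgeR adjusted p = 1.41e-06). The difference between the knockdown lines, -0.49, did not pass (adjusted p = 0.155). IL6 overlaps STEAP1B and IL6-AS1 on the opposite strand, which had at most 8 and 10 counts, and as the strand setting of the counting is not given in the sources used here, those reads cannot be assigned to a strand.

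IL12A, the p35 chain of IL-12 and IL-35, was counted 46 and 60 times in shNC, against 54 and 59 in shHMGA2-1 and 31 and 19 in shHMGA2-2. It was lower in shHMGA2-2 than in shNC (log2 fold change -1.16, SE 0.31, edgeR adjusted p = 0.00244) and than in shHMGA2-1 (-1.17, adjusted p = 0.00254). The first call was lost without shNC replicate 2, where the change was -0.95, and both were lost without shHMGA2-2 replicate 2, at -0.84 against shNC and -0.85 between the lines. IL23A, the p19 chain of IL-23, had 6 and 6, 14 and 12, and 4 and 16 counts and passed no test. IL12B, the partner chain of both, reached at most 3 counts, and IL27 and IL31 were at 0 throughout.

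Among 8 receptor chains of this family, 6 were tested. IL31RA, which with OSMR forms the IL-31 receptor, lies on chromosome 5 from 55851357 to 55922854 on the plus strand (ENSG00000164509), beside IL6ST on the minus strand from 55935095 to 55995022. IL31RA was counted 739 and 798 times in shNC, against 328 and 351 in shHMGA2-1 and 256 and 252 in shHMGA2-2. The lines were separate from each other, with log2 fold changes of -1.26 (SE 0.10, edgeR adjusted p = 8.59e-10) and -1.68 (SE 0.11, edgeR adjusted p = 1.78e-12). Its neighbor IL6ST had 6420 and 6410, 4676 and 5443, and 7810 and 7165 counts. IL6ST was lower in shHMGA2-1 (-0.42, adjusted p = 8.86e-05), did not pass in shHMGA2-2 (0.14, adjusted p = 0.0971), and was higher in shHMGA2-2 than in shHMGA2-1 (0.56, adjusted p = 7.4e-07), all by less than 2-fold.

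The other chains moved less. IL6R, the IL-6 binding chain, was lower, at -0.47 (adjusted p = 0.0262) and -0.85 (adjusted p = 0.000111) on the log2 scale. IL27RA was higher by 0.47 (adjusted p = 0.00808) and 0.70 (adjusted p = 7.07e-05). IL11RA had 20 and 25, 50 and 36, and 29 and 43 counts, and its log2 values of 0.85 and 0.59 did not pass (adjusted p = 0.0567 and 0.149), although the first was 1.054 (0.0366), past both thresholds, without shHMGA2-1 replicate 2. IL12RB2, a chain of the IL-12 receptor, was counted 7 and 3 times in shNC, against 7 and 9 in shHMGA2-1 and 16 and 14 in shHMGA2-2, a ratio of 2.84 over shNC in the latter (95% exact counting interval 1.35 to 6.51, edgeR adjusted p = 0.0378). That call was lost without shNC replicate 2 (adjusted p = 0.236), without shHMGA2-2 replicate 1 (0.14), without shHMGA2-2 replicate 2 (0.0819), with the replicate number as a block (0.0567) and without the filter on low counts (0.0653), and DESeq2 gave 0.25. Without shNC replicate 1 the log2 value rose from 1.48 to 2.19. IL12RB1 and IL23R were at 0 in all libraries.

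IL24 showed the widest contrast between the knockdown lines among the tested members. IL-24 is a cytokine of the IL-10 family that signals through receptors built from IL20RA, IL20RB and IL22RA1. Its gene lies on chromosome 1 from 206897443 to 206904139 on the plus strand (ENSG00000162892). IL24 was counted 18 and 36 times in shNC, against 6 and 2 in shHMGA2-1 and 506 and 446 in shHMGA2-2. All lines were separate, with shHMGA2-1 below and shHMGA2-2 above the control, at 0.232 ± 0.161 and 27.7 ± 3.06 CPM against 1.66 ± 0.784 (SD, n = 2). In shHMGA2-1 IL24 was lower by a ratio of 7.13 (95% exact counting interval 3.37 to 17.3, log2 -2.79, SE 0.50, edgeR adjusted p = 0.00011). In shHMGA2-2 IL24 was 16.7-fold higher (log2 4.05, SE 0.21, edgeR adjusted p = 3.51e-14), and the direct difference between the lines was 6.85 (SE 0.30, edgeR adjusted p = 1.45e-15).

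Without shHMGA2-1 replicate 1 the log2 value of IL24 in shHMGA2-1 was -3.74 and the difference between the lines 7.79. In shHMGA2-2 the value ranged from 3.63 to 4.64 when single libraries were left out. At 14.6 FPKM IL24 stood second among the members only to IL6ST in shHMGA2-2. FCMR, on the opposite strand from 206903317 to 206923247, overlaps only the end of IL24 and had 29 and 27, 20 and 16, and 102 and 137 counts. Reads in the shared stretch cannot be assigned to either gene without the strand setting. FCMR was higher in shHMGA2-2 by 2.01 on the log2 scale (adjusted p = 2.8e-07). The other cytokine genes of the same cluster did not accompany it, as IL10 and IL20 were at 0 in every library and IL19 had at most 3 counts. IL22 was at 0 and IL26 reached 1 count.

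Of 6 receptor chains for the IL-10 family, 4 were tested, and in shHMGA2-2 2 were higher and 1 was lower, where 11.7% and 9.65% of all tested genes were. Of the 2, IL22RA1 passed the filter on low counts only through shHMGA2-2, so it could enter this count only by being high there. IL22RA1, which pairs with IL10RB for IL-22 and with IL20RB for IL-20 and IL-24, had 2 and 2, 6 and 4, and 19 and 19 counts. The ratio of shHMGA2-2 to shNC was 8.99 (95% exact counting interval 3.24 to 34.7, edgeR adjusted p = 0.000401), and the direct difference of 1.90 between the knockdown lines passed (adjusted p = 0.00728). It did not pass without shHMGA2-1 replicate 2 (0.0514) or with DESeq2 (0.133). IL20RA had 6 and 13, 18 and 11, and 37 and 26 counts, with a log2 fold change of 1.64 (SE 0.48, edgeR adjusted p = 0.00499) in shHMGA2-2. IL20RA was not past the threshold without shNC replicate 1 (adjusted p = 0.0714) or shHMGA2-2 replicate 1 (0.0749), and DESeq2 gave 0.0616. Without shNC replicate 2 the log2 value was 2.29. Its difference between the knockdown lines, 1.11 (adjusted p = 0.0402), was lost without shHMGA2-1 replicate 2 (0.21) or shHMGA2-2 replicate 1 (0.273), with the replicate number as a block (0.0544) and with DESeq2 (0.237).

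IL10RB, the shared chain, moved the other way, with 88 and 80 counts in shNC, while shHMGA2-1 gave 118 and 86 and shHMGA2-2 gave 38 and 47. Its log2 fold change in shHMGA2-2 was -1.06 (SE 0.24, edgeR adjusted p = 0.000468), close to the 2-fold threshold, and it was -0.95 with upper quartile scaling, -0.9997 without shNC replicate 1 and -0.94 without shHMGA2-2 replicate 1. Against shHMGA2-1 it was -1.26 (adjusted p = 6.74e-05). IL10RA, the IL-10 binding chain, was not tested. It was at 0 in the 4 shNC and shHMGA2-1 libraries and had 9 and 12 counts in shHMGA2-2, at least 3.30-fold higher than shNC against a floor of 3 counts per library. IL20RB had 5 and 6, 7 and 13, and 8 and 14 counts and passed no test.

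In the IL-1 family, both tested ligands were at least 2-fold lower in shHMGA2-2, and 3 of 4 tested receptors were at least 2-fold higher, beside 9.65% and 11.7% of all tested genes. The other receptor, IL1RAP, was lower by less than 2-fold. Of the 3, IL18R1 passed the filter on low counts only through shHMGA2-2, so it could enter this count only by being high there. IL18, an inflammasome-processed cytokine on chromosome 11 from 112143253 to 112164096 on the minus strand (ENSG00000150782), was by FPKM the most abundant ligand of the control line. It was counted 938 and 911 times in shNC, against 836 and 810 in shHMGA2-1 and 297 and 282 in shHMGA2-2. The lines did not overlap, and the step lay mainly between the knockdown lines. The log2 fold change was -0.25 (adjusted p = 0.0363) in shHMGA2-1 and -1.75 (SE 0.10, edgeR adjusted p = 1.52e-13) in shHMGA2-2, with a direct difference of -1.51 (SE 0.10, adjusted p = 4.99e-12). IL1B had 20 and 23, 12 and 21, and 5 and 5 counts, and was lower in shHMGA2-2 than in shNC by a ratio of 4.55 (95% exact counting interval 2.25 to 10.1, edgeR adjusted p = 0.0017). Its difference between the knockdown lines (-1.70, adjusted p = 0.0162) was lost without shHMGA2-1 replicate 2 (0.164), shHMGA2-2 replicate 1 (0.0743) or shHMGA2-2 replicate 2 (0.0834), and DESeq2 gave 0.11. IL1A, not tested, had 17 and 8, 4 and 10, and 3 and 9 counts, and IL33 was at 0 throughout.

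IL1R1, the signaling receptor of IL-1, was low in the control and in shHMGA2-1 and higher, at 2.12 and 2.15 FPKM, in shHMGA2-2. The gene lies on chromosome 2 from 102064544 to 102179874 on the plus strand (ENSG00000115594). IL1R1 was counted 41 and 35 times in shNC, against 46 and 40 in shHMGA2-1 and 248 and 254 in shHMGA2-2. It was 6.25-fold higher in shHMGA2-2 than in shNC (log2 2.64, SE 0.19, edgeR adjusted p = 1.47e-11), with an adjusted p of 0.801 for shHMGA2-1. The direct difference between the knockdown lines was 2.54 (SE 0.19, edgeR adjusted p = 3.34e-11).

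IL1R1 is part of a cluster of 6 receptor genes. IL18R1, the ligand-binding chain of the IL-18 receptor, had 2 and 0, 4 and 2, and 21 and 18 counts. It was higher in shHMGA2-2 than in shNC by a ratio of 18.4 (95% exact counting interval 4.77 to 158, edgeR adjusted p = 0.000173) and than in shHMGA2-1 by 6.49 (2.73 to 18.8, adjusted p = 0.0018, and 0.0528 with DESeq2). The fitted log2 value against shNC was 4.05. Leaving out shNC replicate 1 gave 7.28 and leaving out shNC replicate 2 gave 3.13. IL1RL2, the IL-36 receptor, was not tested, with 0 and 1 counts in shNC, while shHMGA2-1 gave 0 and 0 and shHMGA2-2 gave 9 and 10. The other members of the cluster, the decoy receptor IL1R2, the IL-33 receptor IL1RL1 and IL18RAP, had at most 2 counts in any library. The neighbors differed from each other as well, since SLC9A2 had 1 and 1, 15 and 25, and 55 and 57 counts, MAP4K4 was higher by 0.31 on the log2 scale in shHMGA2-2, and MFSD9 gave -0.02 there (adjusted p = 0.895).

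**Figure D3:**
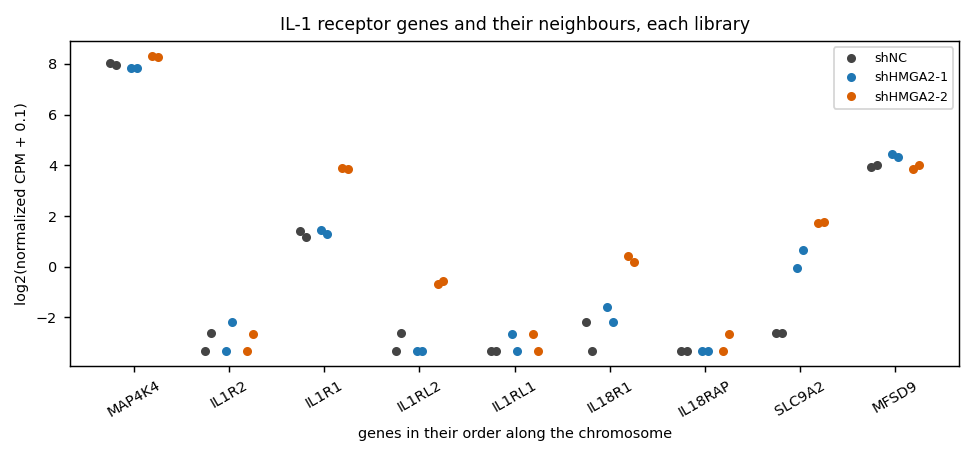
Level of the IL-1 receptor genes and their neighbors in each library, as log2(normalized CPM + 0.1), in order along the chromosome, with unnamed genes and genes at 0 throughout left out. IL1R1, IL1RL2 and IL18R1 are higher in both shHMGA2-2 libraries (orange) than in the 4 others, while IL1R2, IL1RL1 and IL18RAP have at most 2 counts everywhere.

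IL1RAPL1, a synaptic member of the IL-1 receptor family on chromosome X from 28587446 to 29956718 (ENSG00000169306), was counted 37 and 60 times in shNC, against 1 and 5 in shHMGA2-1 and 132 and 124 in shHMGA2-2. Like IL24, it lay below the control in one knockdown line and above it in the other, with no overlap. It was lower in shHMGA2-1 by a ratio of 17.1 (95% exact counting interval 7.57 to 47.7, edgeR adjusted p = 4.16e-07). In shHMGA2-2 the log2 fold change was 1.32 (SE 0.25, edgeR adjusted p = 6.9e-05), and between the lines it was 5.36 (SE 0.41, adjusted p = 8.49e-11). The value in shHMGA2-1 was -3.31 when its replicate 1 was left out and -5.52 when its replicate 2 was, and the difference between the lines was then 4.63 and 6.84. IL1RAP, the shared accessory chain, was lower, at -0.78 (adjusted p = 5.05e-05) and -0.35 (adjusted p = 0.0214). IL18BP, the secreted antagonist of IL-18, passed no test, and it overlaps NUMA1, a gene with up to 2880 counts, on the opposite strand.

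IL7R was the receptor with the largest fall shared by both knockdown lines. It is the alpha chain of the receptors for IL-7 and TSLP and lies on chromosome 5 from 35852695 to 35879603 on the plus strand (ENSG00000168685). IL7R was counted 452 and 411 times in shNC, against 129 and 138 in shHMGA2-1 and 101 and 95 in shHMGA2-2. The levels were 26.6 ± 1.77, 7.78 ± 0.492 and 5.71 ± 0.368 CPM (SD, n = 2), with no overlap. It was 3.41-fold lower in shHMGA2-1 (log2 -1.77, SE 0.13, edgeR adjusted p = 1.96e-10) and 4.65-fold lower in shHMGA2-2 (log2 -2.22, SE 0.14, edgeR adjusted p = 1.45e-12). Between the knockdown lines the difference was -0.45 (adjusted p = 0.0232). IL2RG, the common gamma chain with which IL7R pairs for IL-7, was at 0 counts in all libraries, as were IL2RA and IL2RB.

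Both tested short-chain ligands were lower in both knockdown lines by the adjusted p alone, where 17.6% and 29.2% of all tested genes were. IL15, a growth factor of natural killer and T cells, had 64 and 70, 28 and 15, and 33 and 28 counts. Both knockdown lines lay below the control and overlapped each other, with log2 fold changes of -1.71 (SE 0.32, edgeR adjusted p = 0.000144) and -1.21 (SE 0.30, edgeR adjusted p = 0.0012). Neither IL15 call held with limma on log2(FPKM + 0.1) (adjusted p = 0.0599 and 0.0822) or on log2(FPKM + 1) (0.0501 and 0.0514). IL7, the ligand of IL7R, had 60 and 79, 47 and 43, and 26 and 21 counts. Its log2 fold change was -0.70 (adjusted p = 0.0393) in shHMGA2-1 and -1.64 (SE 0.29, edgeR adjusted p = 3.14e-05) in shHMGA2-2, with a difference of -0.93 between the lines (adjusted p = 0.0137), which was -1.12 without shHMGA2-2 replicate 1. IL7 overlaps ZC2HC1A, a gene with up to 421 counts, on the opposite strand. IL2, IL3, IL5, IL9 and IL21 were at 0 everywhere and IL4 and IL13 reached 3 counts at most.

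IL3RA, the IL-3 binding chain in the pseudoautosomal region of the X and Y chromosomes, was the single member higher in both lines. It was counted 3 and 6 times in shNC, against 15 and 14 in shHMGA2-1 and 37 and 43 in shHMGA2-2. The lines did not overlap, at ratios to shNC of 3.05 (95% exact counting interval 1.41 to 7.33, edgeR adjusted p = 0.0359) and 8.41 (4.21 to 19.1, edgeR adjusted p = 1.11e-05). The shHMGA2-1 call did not stand up to leaving out any one of the 6 libraries, with adjusted p = 0.223 and 0.0522 without shNC replicates 1 and 2, 0.0926 and 0.0658 without shHMGA2-1 replicates 1 and 2, and 0.0533 and 0.0566 without shHMGA2-2 replicates 1 and 2. DESeq2 gave it 0.151. Between the knockdown lines IL3RA was higher in shHMGA2-2 by 1.45 (adjusted p = 0.00387, and 0.074 with DESeq2). The shHMGA2-2 value against shNC ranged from 2.62 to 3.60 on the log2 scale. CSF2RB, the signaling chain with which IL3RA pairs, had at most 2 counts.

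IL4R was counted 820 and 774 times in shNC, against 672 and 551 in shHMGA2-1 and 360 and 308 in shHMGA2-2. The lines stood in the order of HMGA2, which was not so for IL24, IL1RAPL1, IL15 or IL6ST. The log2 fold changes of IL4R were -0.46 (adjusted p = 0.00142) and -1.33 (SE 0.11, edgeR adjusted p = 2.78e-10). Its difference between the lines was -0.87 (adjusted p = 6.97e-07), and -1.01 without shHMGA2-2 replicate 1. IL13RA1, which pairs with IL4R to bind IL-4 and IL-13, was higher by 0.26 (adjusted p = 0.0149) in shHMGA2-1 and lower, at -0.52 (adjusted p = 8.96e-06) in shHMGA2-2, both under 2-fold. IL15RA, at 0.11 and 0.07, passed no test.

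Of the IL-17 family, 1 of 6 ligands and 5 of 6 receptors were tested. IL17D had 4 and 6, 10 and 9, and 14 and 25 counts, a ratio of 3.69 for shHMGA2-2 over shNC (95% exact counting interval 1.81 to 8.29, edgeR adjusted p = 0.00758). The call was lost without shNC replicate 1 (adjusted p = 0.0654) or shHMGA2-2 replicate 2 (0.118), and DESeq2 gave 0.0977. Of the 5 tested receptors, none passed both thresholds against shNC, where 8.49% and 21.3% of all tested genes did. None did between the knockdown lines either, where 15.1% of all tested genes did. IL17RD was lower, at -0.50 (adjusted p = 0.00274) and -0.67 (adjusted p = 6.74e-05) and IL17RE higher by 0.60 (adjusted p = 0.00934) and 0.74 (adjusted p = 0.000686), while IL17RA, IL17RB and IL17RC passed no test, with log2 values from -0.23 to 0.14 against shNC. IL32, an intracellular inflammatory protein, was the only tested one of the members set apart from these families. It was counted 65 and 60 times in shNC, against 66 and 63 in shHMGA2-1 and 203 and 211 in shHMGA2-2. In shHMGA2-2 it was 3.13-fold higher than in shNC (log2 1.65, SE 0.18, edgeR adjusted p = 1.76e-08). It was also 1.68 higher there on the log2 scale than in shHMGA2-1 (edgeR adjusted p = 1.72e-08).

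**Figure D4:**
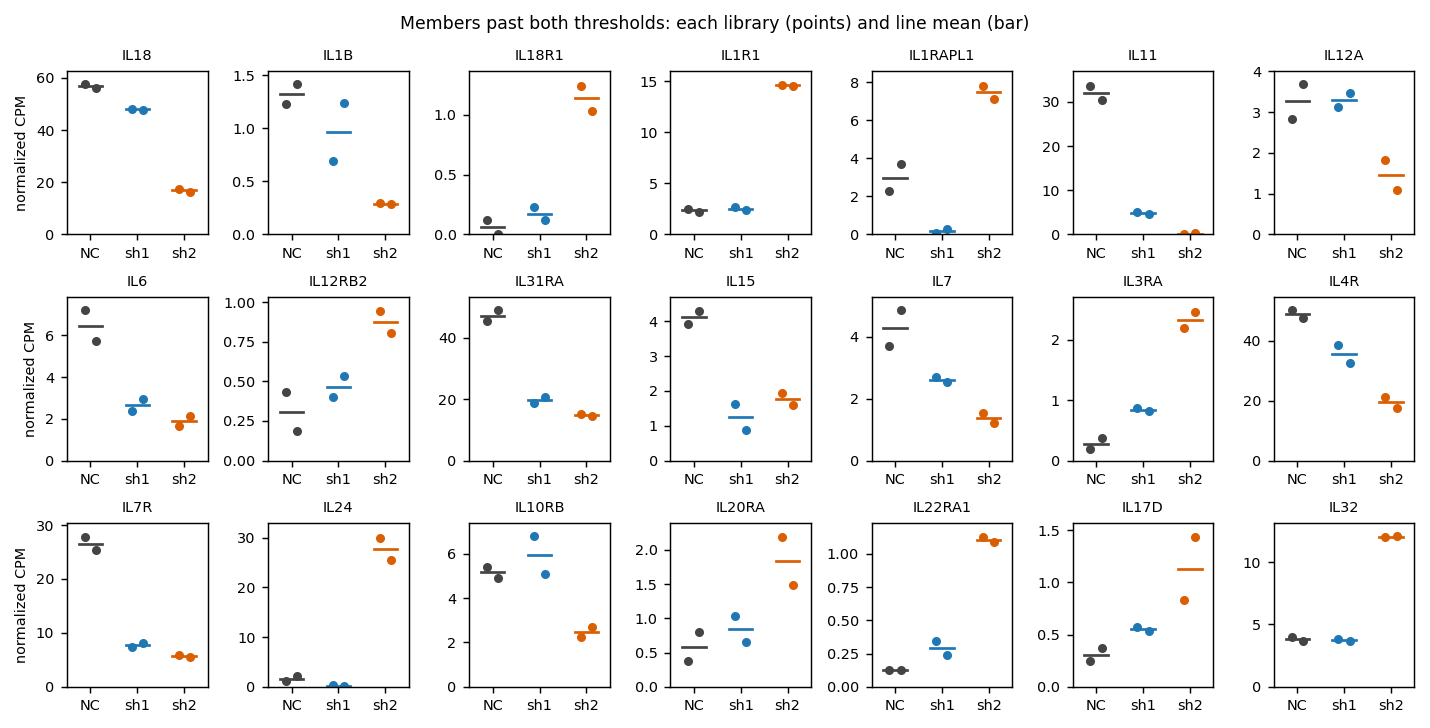
Normalized CPM of the 21 members past both thresholds in at least 1 of the 3 comparisons between lines, in shNC (NC), shHMGA2-1 (sh1) and shHMGA2-2 (sh2), on a linear axis from 0 for each gene. Points are the 2 libraries of a line and bars their mean, and IL24 and IL1RAPL1 lie below shNC in shHMGA2-1 and above it in shHMGA2-2.

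When the 4 shHMGA2 libraries were taken as a single group, so that the difference between the lines counted as error, 3 of the 36 members were lower and none higher, beside 1.37% and 1.72% of all genes, or 3.09% in either direction. The adjusted p alone called the same number, where 2.92% of all genes were lower and 2.34% higher. These were IL7R (-1.98, SE 0.19, edgeR adjusted p = 0.00729), IL31RA (-1.45, SE 0.17, edgeR adjusted p = 0.0102) and IL6 (-1.51, SE 0.27, edgeR adjusted p = 0.0337). IL11 did not pass here (-3.70, adjusted p = 0.131). None of the 3 calls held when either shNC library was left out. The log2 values of IL7R, IL31RA and IL6 were then -1.91, -1.51 and -1.34 without shNC replicate 1. They were -2.04, -1.39 and -1.66 without shNC replicate 2. IL6 also did not pass without shHMGA2-1 replicate 1 (0.0684), shHMGA2-2 replicate 1 (0.0689) or shHMGA2-2 replicate 2 (0.0835), or with the replicate number as a block (0.103).

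Of the members not tested, 25 were at 0 everywhere, among them IL2, IL10, IL17A, IL22, IL33 and IL2RG, and 19 reached 1 to 3 counts. The 7 others were IL4I1, IL16, IL10RB-DT, IL1RL2, IL10RA, IL6ST-DT and IL1A, with highest counts of 4, 5, 8, 10, 12, 13 and 17. The 15 tested members without a 2-fold call in any comparison between lines were IL11RA, IL13RA1, IL15RA, IL17RA, IL17RB, IL17RC, IL17RD, IL17RE, IL18BP, IL1RAP, IL20RB, IL23A, IL27RA, IL6R and IL6ST, of which 13 are receptor chains.

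Other genes of interleukin signaling without such a symbol were described by lists of 65 genes, of which 58 were tested. In shHMGA2-1 3 were lower and 1 was higher, where 3.59% and 4.89% of all tested genes were. In shHMGA2-2 8 were lower and 4 higher, where 9.65% and 11.7% of all tested genes were. Taken in either direction, these counts out of 58 are near or below the shares of all tested genes, 8.49% and 21.3%. The genes below are therefore described singly. Among the 16 genes of the IL-1 and IL-17 relay, IRAK3, an inhibitory relative of the IRAK kinases, had 270 and 203, 169 and 157, and 16 and 17 counts, a log2 fold change of -3.91 (SE 0.23, edgeR adjusted p = 3.74e-13) in shHMGA2-2. SIGIRR, an inhibitory receptor of the IL-1 family, was higher there by 1.72 (SE 0.24, adjusted p = 1.24e-06), PELI1 lower, at -1.38 (adjusted p = 1.89e-09), and IRAK4 lower in shHMGA2-1, at -1.004 (adjusted p = 6.52e-07). MYD88, the adaptor of the pathway, did not change 2-fold in either.

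For the processing of IL-1 and IL-18, PYCARD, the inflammasome adaptor ASC, was counted 1 and 0 times in shNC, against 1 and 1 in shHMGA2-1 and 54 and 59 in shHMGA2-2. CASP1, which cleaves pro-IL-1 beta and pro-IL-18, had 42 and 48, 18 and 14, and 30 and 32 counts, and was lower in shHMGA2-1 (-1.56, SE 0.35, edgeR adjusted p = 0.00102) and not past the threshold in shHMGA2-2 (-0.62, adjusted p = 0.0927). CASP4 (-1.32) and CAPN2 (-1.48) were lower in shHMGA2-2. Of the feedback genes, SOCS2, an inhibitor of JAK-STAT signaling, had 561 and 546, 265 and 310, and 32 and 26 counts, with log2 fold changes of -1.02 (SE 0.12, edgeR adjusted p = 2.93e-07) and -4.33 (SE 0.17, edgeR adjusted p = 1.47e-16). SOCS3, the feedback inhibitor of gp130, was lower, at -0.56 (adjusted p = 3.53e-05) and -1.06 (adjusted p = 8.22e-10). ZC3H12A, an RNase that degrades IL6 mRNA, was lower, at -0.62 (adjusted p = 0.04) in shHMGA2-1 and higher by 1.44 (adjusted p = 4.83e-07) in shHMGA2-2.

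Of the JAK-STAT relay, 2 of 10 tested genes were past both thresholds in shHMGA2-2, near the 21.3% of all tested genes. These were STAT6, the factor of IL-4 and IL-13 signaling, which was lower, at -0.74 (adjusted p = 3.68e-08) and -1.01 (adjusted p = 4.34e-11), and STAT4, with 10 and 9, 10 and 16, and 1 and 3 counts. STAT3 changed by 0.18 (adjusted p = 0.0401) and -0.25 (adjusted p = 0.00233). Among the partner genes, CSF2RA was higher by 1.07 (adjusted p = 2.79e-08) in shHMGA2-1 and, just under 2-fold, by 0.995 (adjusted p = 2.68e-08) in shHMGA2-2. LIFR was lower, at -0.77 and -0.75 (adjusted p = 1.58e-05 and 6.75e-06), and OSMR, the partner of IL31RA, was higher by 0.52 (adjusted p = 5.31e-07) in shHMGA2-2. Its value in shHMGA2-1 was -0.06, and the direct difference between the lines was 0.58 (adjusted p = 1.58e-07).

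**Figure D5:**
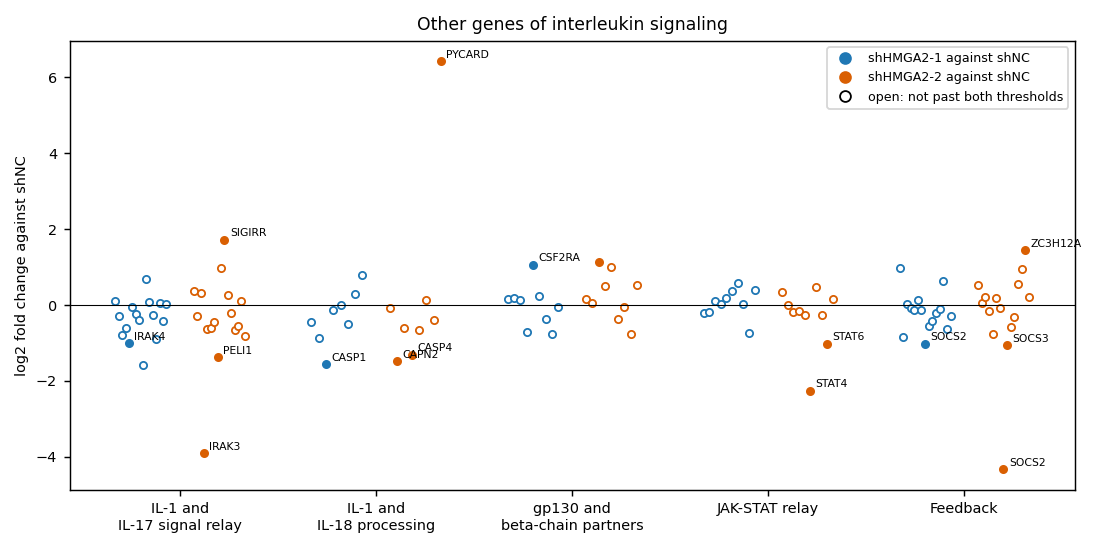
Log2 fold change against shNC of the 58 tested genes of interleukin signaling without an interleukin symbol, in 5 lists, for shHMGA2-1 (blue) and shHMGA2-2 (orange). Filled points passed both thresholds, those described in the text are named, and PYCARD stands highest and SOCS2 and IRAK3 lowest in shHMGA2-2.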

How the data were processed

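RNA of 6 libraries, 2 each of shNC, shHMGA2-1 and shHMGA2-2, was analyzed, grouped by sample title. The authors deposited a single table with whole-number read counts and FPKM values per gene and library. Per the submitters' processing notes, which give no roles, HISAT2 2.2.1, HTSeq 0.6.1 and GRCh38.p13 were named. The strand setting is not given in the sources used here. The deposited FPKM values were recomputed from counts, exonic size and library total for 100% of values, within 0.006. Sample columns that were not used numbered 0.

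Counts were tested in R 4.3.3 with edgeR 4.0.16: TMM scaling, filterByExpr by group, a model of the 3 lines, and quasi-likelihood tests, with p-values adjusted by Benjamini-Hochberg across 16110 genes. A called gene had an adjusted p under 0.05 and at least a 2-fold change. The test was tested on simulated data. Normalized CPM used TMM library sizes. For groups of low counts the ratio of counts is given with an exact interval of 95%. Alternatives were DESeq2 1.42.0, RLE and upper quartile scaling, no filter, a mean FPKM of at least 1, limma 3.58.1 on log2(FPKM + 1) and log2(FPKM + 0.1), the replicate number as a block, only the groups compared, and each library left out. Full values are given for every called member, and other tested members are named where an adjusted p was under 0.05. Members and gene lists were chosen with earlier results of these data known. Positions are those of the deposited table, and promoters are from RefSeq. A gene of the pathway lists is counted in them but not reported by name here.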

Additional observations from a re-analysis of the deposited data

Results flagged for a closer look

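In 13 members the change from shNC differed between the 2 knockdown lines, since the direct comparison of shHMGA2-2 with shHMGA2-1 passed both thresholds (quasi-likelihood test of edgeR, Benjamini-Hochberg adjusted). The log2 difference was 6.85 for IL24 and 5.36 for IL1RAPL1, which lay on opposite sides of the control in the lines. It was 2.65 for IL18R1, 2.54 for IL1R1, 1.90 for IL22RA1, 1.68 for IL32, 1.45 for IL3RA and 1.11 for IL20RA, each higher in shHMGA2-2. It was -4.71 for IL11, -1.70 for IL1B, -1.51 for IL18, -1.26 for IL10RB and -1.17 for IL12A, each lower in shHMGA2-2. With DESeq2 5 of the 13 did not pass, IL18R1 (adjusted p = 0.0528), IL3RA (0.074), IL1B (0.11), IL22RA1 (0.133) and IL20RA (0.237). HMGA2 itself was lower in shHMGA2-2 than in shHMGA2-1, at -1.01 on the log2 scale, so that a difference in knockdown and a difference between clones cannot be told apart here. With 2 libraries a line, no single library could be tested as standing apart from its group.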

How the results depend on the processing

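The main counts of called members were 8, 21 and 13 for shHMGA2-1 against shNC, shHMGA2-2 against shNC and shHMGA2-2 against shHMGA2-1, and 3 for the single shHMGA2 group. With a mean FPKM of at least 1, which leaves fewer members to test, the first 3 were 4, 8 and 5. With limma on log2(FPKM + 1), which shrinks changes of low genes, the 4 counts were 2, 9, 6 and 1. DESeq2 called 7, 19, 10 and 5, and kept 7 of the 8, 18 of the 21, 8 of the 13 and 3 of the 3 calls. The cause was not tested. Without single libraries the counts ranged from 7 to 8, 18 to 21, 10 to 13 and 0 to 3, the 0 arising without either shNC library. With the replicate number as a block, the counts were 8, 20, 12 and 2. The numbers did not pair the libraries, as deviations of libraries with one number correlated at -0.02, 0.0036 and -0.18 between lines. Of 644 values of 45 member calls under the alternatives, 559 kept direction and call, 85 kept the direction and lost the call, and 0 reversed. Settings in which a called member was not tested are not among these values, mainly those with a mean FPKM of at least 1. Upper quartile scaling moved the median of all genes by 0.115 on the log2 scale for shHMGA2-2 against shNC. At this depth 44 of 87 members never exceeded 3 counts, 25 of them at 0 throughout. Low depth and absent expression were not told apart for them.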
